A study of Mus musculus with 12 samples.

Results

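Serpins were followed in ATAC-seq data from mouse liver. In ATAC-seq a transposase inserts adapters where chromatin is open, so the count over a promoter measures its accessibility. Members were all genes of the promoter table whose symbol begins with Serpin and a clade letter from a to i. This gave 92 promoter rows of 65 genes, among 43511 rows of 25124 symbols. Of the 65 genes, 19 had more than 1 promoter row, and each gene is represented by its row of highest mean count. Of these 65 rows, 64 passed the filter on low counts. The row that did not was Serpinb9h, with 0 to 19.5 counts per library. The rule used no measured change between groups.

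The 12 libraries came from livers of C57BL/6N mice, wild type, male and 19 to 20 weeks old, kept on a chow diet, dosed by oral gavage for 4 days and fasted for 12 h before the liver was taken. The first of the 3 groups received 100 mg/kg pregnenolone 16α-carbonitrile (PCN), which activates mouse PXR, the pregnane X receptor, a regulator of drug metabolism genes. The second received 10 mg/kg atorvastatin, a cholesterol-lowering statin, and the third, the control, received distilled water. Each group has 4 libraries, drawn from 9 to 10 mice per group. The labels do not say whether a library came from a single mouse, so p-values measure only the spread between these libraries. A pravastatin group is not analysed here.

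Serpins are a superfamily of proteins that mostly inhibit serine proteases. The protease cleaves an exposed loop of the serpin, the serpin refolds, and the protease is trapped in a covalent complex. Several members are no inhibitors but hormone carriers or chaperones. Hepatocytes secrete the serpins of blood plasma, which restrain coagulation, fibrinolysis, complement and neutrophil elastase, whereas many members of clade b stay inside leukocytes, keratinocytes and other epithelial cells. In mice the α1-antitrypsin, antichymotrypsin and several clade b genes have each multiplied into families of near-identical neighbours. The members were grouped by known site of expression into 18 plasma serpins of hepatocytes, 8 broadly expressed or non-hepatocyte serpins, and 38 serpins of other tissues. The pseudogene Serpina4-ps1 was left unlisted.

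Library totals in the promoter table ran from 1.68e+06 to 1.53e+07 counts. Values are given in CPM, counts scaled to the library total and its TMM factor, and 3 counts correspond to between 0.217 and 1.88 CPM depending on the library. Control 3 and atorvastatin 3 stood apart, with median correlations to the other libraries across promoters of 0.698 and 0.744, against 0.897 to 0.967 for the other 10. Both are labelled as livers of their groups, and several results below are also given without these 2 libraries. Promoters of 6 hepatocyte markers had a median between 24.8 and 50.3 CPM in the 12 libraries. The medians of 7 marker lists of other cell types lay between 0.628 and 18.7 CPM. The liver is a mixture of cells, and fewer cells of a type and less accessible chromatin per cell cannot be told apart here.

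Plasma serpins had open promoters, and most other serpins did not. Over the 12 libraries the mean CPM of the 18 plasma serpins had a median of 34.3 and ran from 4.88 to 54.5. The 8 broadly expressed or non-hepatocyte serpins had a median of 14.1. The 38 serpins of other tissues had a median of 5.03, with a range of 0.866 to 81.9. Over all 25124 symbols the median was 12.7 CPM. Above that median lay 16 of 18 plasma serpins, 4 of 8 broadly expressed ones and 2 of 38 of other tissues. The 18 most open serpin promoters comprised 14 plasma serpins, 2 broadly expressed serpins, 1 serpin of other tissues and Serpina4-ps1. The lists were drawn up from known sites of expression, so these counts are a description without a test. The width of the authors' promoter windows is not given in the sources used here, so levels of different genes are counts per promoter row and not per length.

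**Figure D1:**
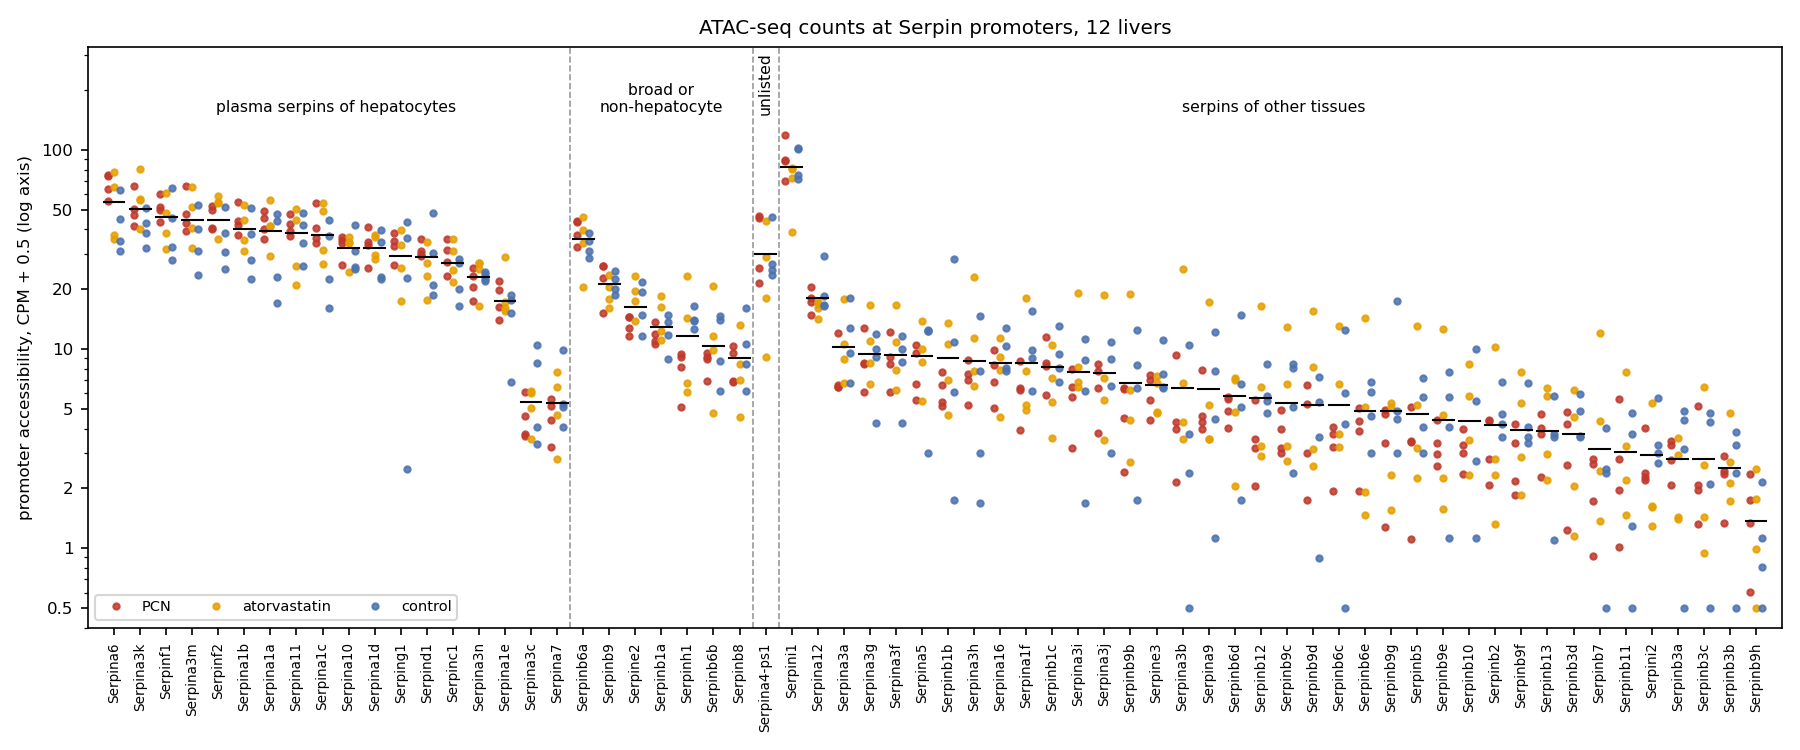
Promoter accessibility of 64 serpin genes in 12 liver libraries, as CPM plus 0.5 on a log axis, with 1 point per library, coloured by group, and a black line at the mean. Of the plasma serpins of hepatocytes 16 of 18 lie above 12.7 CPM, the median of all symbols, most serpins of other tissues lie below 10, and Serpini1 stands above all at 81.9.

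The separation was seen within every library but differed widely in size between them. The ratio of the median plasma serpin to the median serpin of other tissues was 7.48, 12.9, 9.80 and 10.3 in PCN libraries 1 to 4. It was 4.20, 16.7, 2.41 and 13.9 in the atorvastatin libraries, and 3.58, 7.51, 3.41 and 17.4 in the control libraries. The groups overlapped, and the lowest ratios were those of atorvastatin 3, control 3 and control 1. The spread within the atorvastatin group (mean 9.30, SD 7.06, n = 4) and within the control group (mean 7.97, SD 6.55, n = 4) was larger than the distance of either mean from that of PCN (mean 10.1, SD 2.21, n = 4).

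Among the hormone carriers, Serpina6 encodes corticosteroid-binding globulin, the plasma carrier of glucocorticoids, and it had the most open promoter of the plasma list. Its gene lies at chr12:103646630-103657218 (mm10). In PCN livers it had 55.1, 74.2, 63.1 and 74.1 CPM. In atorvastatin livers it had 35.5, 77.0, 37.0 and 64.9 CPM, and in control livers 30.8, 44.6, 34.7 and 62.5 CPM. Thus 3 of the 4 PCN libraries lay above every control library, while the groups still overlapped because PCN 1 lay below control 4. Serpina7 encodes thyroxine-binding globulin, a carrier of thyroid hormone. Its promoter was near closed, at 4.12 ± 1.05 CPM in PCN livers, 4.91 ± 2.11 in atorvastatin livers and 5.61 ± 2.60 in control livers (SD, n = 4 each). Only 22.4% of all symbols lay below it, against 91.5% for Serpina6.

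The serpins that restrain coagulation and fibrinolysis were of middle to high accessibility. Serpinf2 encodes α2-antiplasmin, the inhibitor of plasmin. It averaged 45.2 ± 6.33 CPM in PCN livers, 50.5 ± 10.4 in atorvastatin livers and 36.0 ± 11.5 in control livers (SD, n = 4 each). Serpinc1 encodes antithrombin, the main plasma inhibitor of thrombin and factor Xa, and it averaged 29.1 ± 5.43, 28.0 ± 6.35 and 22.5 ± 5.73 CPM in PCN, atorvastatin and control livers. Serpind1, the gene of heparin cofactor II, averaged 31.2 ± 2.94 CPM with PCN, 25.2 ± 7.06 with atorvastatin and 29.1 ± 13.4 in control. Serpina10, which encodes the protein Z-dependent protease inhibitor of factor Xa, averaged 32.8 ± 4.55 CPM with PCN, 32.0 ± 5.46 with atorvastatin and 30.6 ± 7.67 in control. The libraries of the 3 groups overlapped for each of these genes. The group means differed by more than the SD of either group for Serpinf2 between atorvastatin and control and for Serpinc1 between PCN and control, and the fits of these differences are given with each comparison.

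Serping1 encodes the C1 inhibitor of complement and plasma kallikrein. It had 26.0 to 38.0 CPM in PCN livers and 17.0 to 39.1 CPM in atorvastatin livers. Control livers 1 to 4 had 22.2, 35.8, 1.99 and 43.3 CPM. The low value, from 5 counts, was in control 3, the library that stood apart. Serpinf1 encodes pigment epithelium-derived factor, a secreted non-inhibitory serpin, and averaged 51.0 ± 6.88 CPM with PCN, 44.5 ± 12.6 with atorvastatin and 42.2 ± 16.5 in control (SD, n = 4 each).

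The α1-antitrypsin genes, a family best known for the inhibition of neutrophil elastase, are 6 neighbours. Serpina1a to Serpina1e are counted as plasma serpins and Serpina1f is not. Mean CPM over the 12 libraries was 38.8 for Serpina1a, 39.8 for Serpina1b, 36.8 for Serpina1c, 31.8 for Serpina1d and 16.9 for Serpina1e. Serpina1f lay at 8.01 CPM. How the authors placed reads that fit several copies is not given, so the values of single copies are uncertain. The promoter sequences below are those of RefSeq (GRCm38.p6, minus strand, 5′ to 3′). They are shown because the 5 open copies share a stretch with GTTAAT, which was not found in the promoter sequence of the less open copy. Each holds 76 bases, with the half-site of the liver factor HNF1, GTTAAT, in capitals, and for Serpina1f the 76 bases directly before the annotated start.
Serpina1a, chr12:103863625-103863700: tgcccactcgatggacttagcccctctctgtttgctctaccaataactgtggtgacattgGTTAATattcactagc
Serpina1b, chr12:103738200-103738275: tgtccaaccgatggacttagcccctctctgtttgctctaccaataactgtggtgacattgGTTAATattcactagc
Serpina1c, chr12:103904962-103905037: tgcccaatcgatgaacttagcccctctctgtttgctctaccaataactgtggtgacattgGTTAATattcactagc
Serpina1d, chr12:103773634-103773709: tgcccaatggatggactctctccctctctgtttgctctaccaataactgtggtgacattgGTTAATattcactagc
Serpina1e, chr12:103956960-103957035: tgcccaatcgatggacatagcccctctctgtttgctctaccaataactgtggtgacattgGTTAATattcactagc
Serpina1f, chr12:103695530-103695605: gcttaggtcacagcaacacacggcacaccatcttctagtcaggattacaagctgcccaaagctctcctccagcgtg

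The windows of Serpina1a to Serpina1e differed from each other at 2 to 7 of 76 positions in the 10 pairs, so 90.8% to 97.4% of bases were identical. Against Serpina1f, read without gaps, 54 to 56 positions differed. This was read at a single alignment, so it cannot show that a shifted copy of the stretch is absent from Serpina1f. The half-site began 16 to 27 bases before the annotated start in Serpina1a to Serpina1d and 78 bases before it in Serpina1e, whose promoter was the least open of the 5. Whether that distance bears on the level was not tested. Across the 54 members with a RefSeq promoter of 250 bases before to 50 after the start, GTTAAT was found on either strand in 7 of 13 plasma serpins, 1 of 6 broadly expressed ones and 3 of 35 of other tissues, against 7.20% of all 27025 promoters. The 7 include the near-identical copies Serpina1a to Serpina1e and so are not 7 independent matches. The 2 further plasma promoters with GTTAAT were Serpina3c and Serpina7, the only 2 plasma serpins with levels below the median of all symbols. A match is a description of letters and not a bound site.

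The antichymotrypsin family was split in the same way between open and near closed neighbours. Serpina3k, which encodes contrapsin, averaged 50.9 ± 10.4 CPM with PCN, 58.0 ± 16.6 with atorvastatin and 40.8 ± 8.04 in control (SD, n = 4 each). Serpina3m averaged 48.4 ± 11.7, 47.0 ± 14.4 and 36.6 ± 12.7 CPM in PCN, atorvastatin and control livers. Serpina3n, an acute phase gene and the usual counterpart of human antichymotrypsin, was lower and steadier, at 21.3 ± 3.54 CPM with PCN, 23.6 ± 5.11 with atorvastatin and 22.7 ± 1.14 in control. Serpina3c was the exception among the plasma members of the family, at 4.03 ± 1.12, 4.69 ± 1.21 and 6.09 ± 3.45 CPM in PCN, atorvastatin and control livers. The remaining members, Serpina3a, 3b, 3f, 3g, 3h, 3i and 3j, averaged between 5.92 and 9.76 CPM over all libraries. As in the α1-antitrypsin family, reads may be shared between copies.

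All of these genes, with Serpina6, Serpina10 and Serpina11, sit in a cluster of 25 serpins spanning 798 kb of chromosome 12 (chr12:103616675-104414334, mm10). Accessibility along it came in blocks. At its low-coordinate end Serpina10 and Serpina6 were open at 31.8 and 54.5 CPM. Serpina16 and Serpina1f followed at 8.02 and 8.01 CPM. A second open block held Serpina1b, Serpina1d, Serpina1a, Serpina1c, Serpina1e and Serpina11, the last at 37.8 CPM. After Serpina9 at 5.83 CPM came Serpina12 at 17.5 and Serpina4-ps1 at 29.6 CPM. A long stretch from Serpina5 to Serpina3j stayed between 4.94 and 9.76 CPM. At the high-coordinate end Serpina3k, Serpina3m and Serpina3n were open again. Serpina12 encodes vaspin, best known from fat tissue, and its mean over the 12 libraries was the highest of the members listed for other tissues in this cluster, with single libraries between 13.7 and 28.9 CPM. In atorvastatin 3, Serpina3b at 24.9 CPM and Serpina3h at 22.5 CPM were among those above it.

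**Figure D2:**
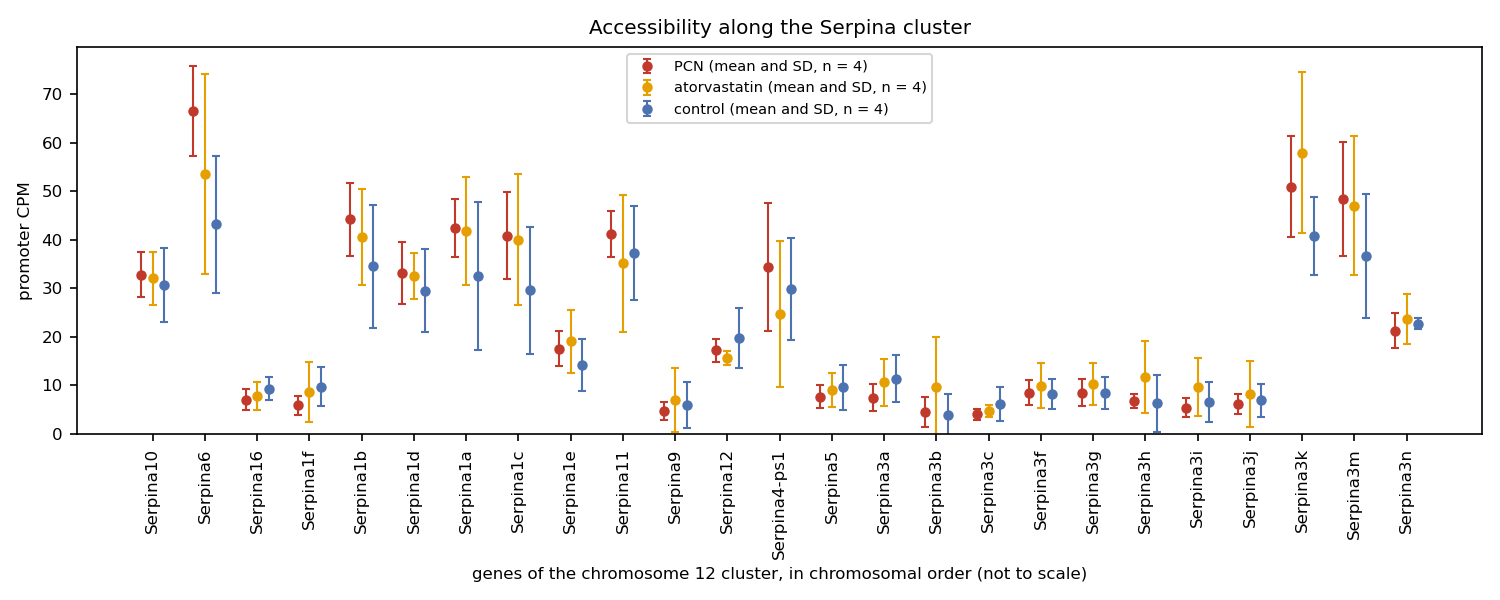
Mean promoter CPM with SD (n = 4 libraries per group) of the 25 serpin genes of the chromosome 12 cluster, in chromosomal order and not to scale. Open blocks at Serpina10 and Serpina6, at Serpina1b to Serpina11 and at Serpina3k to Serpina3n are separated by members mostly near or below 10 CPM, with Serpina12 at 17.5 CPM and Serpina4-ps1 at 29.6 CPM over all libraries as exceptions.

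The clade b clusters were mostly closed. On chromosome 13, 2 of 16 serpins exceeded the median of all symbols, Serpinb6a at 35.4 CPM and Serpinb9 at 20.7 CPM. Serpinb6a encodes a broadly expressed intracellular serpin, and Serpinb9 encodes the inhibitor of granzyme B. Its neighbours Serpinb9b to Serpinb9h lay at 0.866 to 6.25 CPM. On chromosome 1, 2 of 14 serpins exceeded that median, Serpinc1 and Serpine2, neither of clade b. The epithelial genes Serpinb5, which encodes maspin, and Serpinb3a to Serpinb3d lay at 2.04 to 4.24 CPM. Several of these counted 0 in a library: 8 of the 65 members had at least 1 library at 0, and 3 counts is the level below which such a library cannot be told from a low one.

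Further serpins made outside hepatocytes or in many cell types were of lower accessibility than Serpinb6a and Serpinb9. Serpine2, which encodes a thrombin-inhibiting nexin of the cell surface, averaged 12.9 ± 1.47 CPM with PCN, 18.1 ± 3.97 with atorvastatin and 16.5 ± 4.57 in control (SD, n = 4 each). Serpinh1 encodes the collagen chaperone of the endoplasmic reticulum, a serpin without inhibitory function that is high in stellate cells and fibroblasts. It averaged 7.47 ± 1.95 CPM with PCN, 12.2 ± 8.03 with atorvastatin and 13.8 ± 1.64 in control. Serpinb1a, a gene of the leukocyte elastase inhibitor, averaged 12.4 CPM over the 12 libraries, and Serpinb6b and Serpinb8 averaged 9.94 and 8.50 CPM.

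The most open serpin promoter of all was Serpini1, the gene of neuroserpin, which inhibits tissue plasminogen activator in neurons. It had 69.2 to 119 CPM in PCN livers, 38.2 to 80.7 in atorvastatin livers and 70.8 to 102 in control livers, and the lowest value was in atorvastatin 3. Its gene (chr3:75557493-75642523, mm10) begins 640 bp from the body of Pdcd10, a gene expressed in many cell types. The promoter row of Pdcd10 had nearly the same count, a mean of 81.9 CPM for each gene, so the signal cannot be assigned to 1 of them. Serpini2 lay at 2.46 CPM. After Serpini1 and Serpina12, the third most open of the serpins of other tissues was Serpina3a, at 9.76 CPM.

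Base composition separated the lists less than accessibility did. The observed over expected ratio of CpG dinucleotides, which is high in CpG islands, had a median of 0.18 in 13 plasma serpin promoters and 0.15 in 35 promoters of other tissues, against 0.39 over 27025 promoters. None of these 48 promoters exceeded 0.6, a limit passed by 36.5% of all promoters. Of the 6 broadly expressed serpins with a sequence, 2 did, Serpinb6a at 1.12 and Serpine2 at 0.94. TATAAA was found on either strand in 2 of 13 plasma serpins and 12 of 35 of other tissues, against 14.2% of all promoters. A C/EBP-type match, TTGCNNAA, was found in 6 of 13 and 8 of 35, against 10.8%. A match to the direct repeat bound by PXR (PXR repeat), on either strand with up to 2 mismatches, was found in 0 of 13 and 2 of 35, against 2.45%.

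By the medians of the lists, distal regions showed the same divide as promoters, but within the chromosome 12 cluster single genes did not follow it. The authors' enhancer table holds 406518 regions, nearly all of 12 widths between 82 and 192 bp, and each width class was relatively highest in a different one of the 12 libraries. Regions overlap, so they were counted as merged stretches and as the number of width classes with a region within 10 kb of a gene. The 18 plasma serpins had a median of 9 width classes and 1.85 stretches per 10 kb. The 8 broadly expressed serpins had 6 classes and 1.23 stretches per 10 kb, and the 38 of other tissues had 1.5 classes and 0.46 stretches per 10 kb. At least 6 classes were found at 14 of 18 plasma serpins, 5 of 8 broadly expressed ones and 10 of 38 of other tissues. In the chromosome 12 cluster, Serpina16, Serpina3a and Serpina5 had 10 classes each, although their promoters were near closed. Serpina1b and Serpina1c had 1 and 4 classes, although their promoters were open. Serpina12 had regions of all 12 classes, 23 of its 27 regions inside the gene. Serpinc1 had the most regions, 41, in 15 stretches. Serpina7 had none within 10 kb, and Serpini1, for all its open promoter, had 2 classes. Members in the cluster share neighbours, so a region may count for more than 1 gene, and 25 regions lay near genes of 2 lists.

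**Figure D3:**
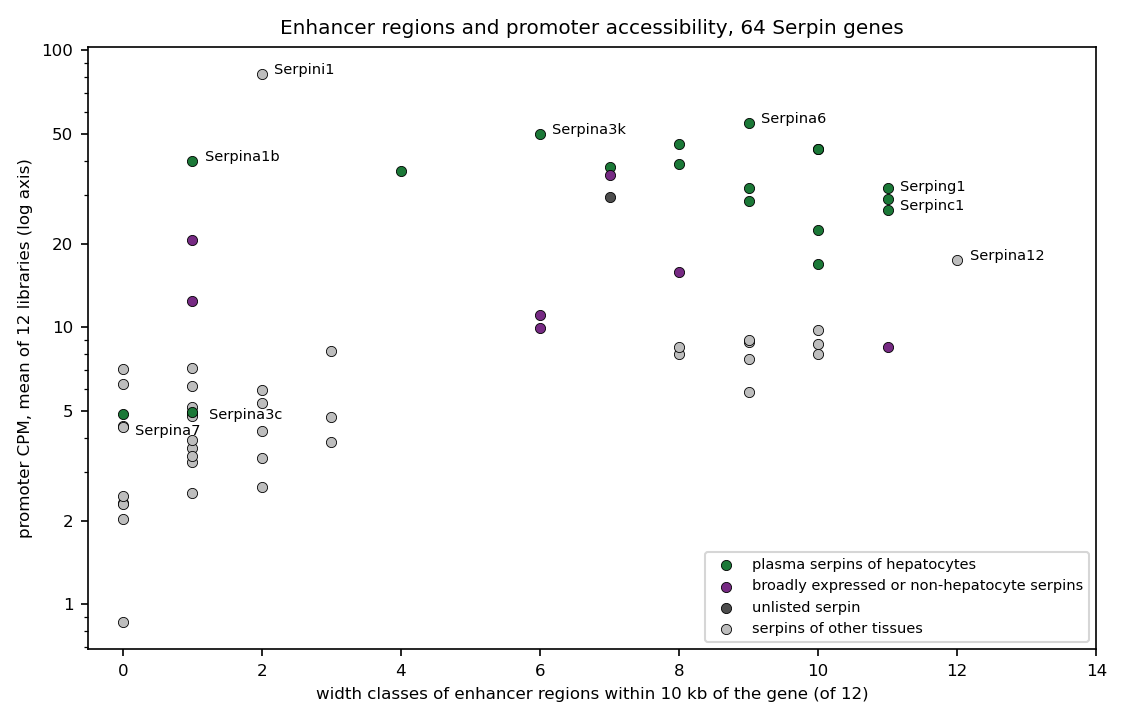
Each point is 1 of 64 serpin genes, with the number of enhancer width classes (of 12) that have a region within 10 kb on the x axis and the mean promoter CPM of 12 libraries on a log y axis, coloured by list. Plasma serpins gather at 6 or more classes (14 of 18), with Serpina7, Serpina3c, Serpina1b and Serpina1c at fewer, and Serpini1 is highly open with 2 classes.

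The comparison of PCN with control asks which serpin promoters opened or closed under the PXR agonist. No serpin promoter passed the test, and the largest difference among well-covered plasma members was that of Serpina6, at a log2 fold change of 0.64. As a list, plasma serpins lay slightly above control and serpins of other tissues below it, but the library medians of both lists overlapped between the groups. Under edgeR's quasi-likelihood test and Benjamini-Hochberg adjustment over all promoters, 0 of 64 serpins were called (0% of all 41908 promoters), and DESeq2 and limma-voom also called 0 promoters. At an unadjusted p under 0.05, 1 serpin lay higher and 0 lower, against 1.87% and 1.88% of all promoters, 3.75% in both directions. Serpina6 was that member, at 0.64 ± 0.28 (SE, n = 4 per group, above the control mean in 4 of 4, unadjusted p = 0.0317, adjusted p = 0.918 by edgeR). Its 95% interval was 0.09 to 1.19, and without control 3 and atorvastatin 3 it was at 0.58 ± 0.25.

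Of the 18 plasma serpins, 15 had a log2 fold change above 0, against 51% of all promoters, with a median of 0.31 where that of all symbols was -0.02. Their median per library had a pooled SD of 0.35 on the log2 scale, more than that shift. It ran from 34.1 to 44.0 CPM in PCN livers and from 21.7 to 43.7 CPM in control livers. The members were read in the same libraries, so the count above 0 is not independent support. Next to Serpina6 on the higher side, by p, came Serpina1c at 0.48 ± 0.29 and Serpinc1 at 0.38 ± 0.23. Serpina3m was at 0.42 ± 0.27, Serpina1a at 0.39 ± 0.28, Serpina1b at 0.38 ± 0.25 and Serpinf2 at 0.34 ± 0.24. The other members above 0 ran from 0.13 for Serpina10 to 0.36 for Serping1. Serpina3n, Serpina7 and Serpina3c lay at -0.11, -0.39 and -0.59. Without control 3 and atorvastatin 3, Serpina1c was at 0.31, Serpinc1 at 0.28, Serpina3m at 0.28, Serpina1a at 0.21, Serpina1b at 0.25, Serpinf2 at 0.23, and Serping1, with its 5 counts in control 3, at 0.04. The adjusted p of every plasma serpin by edgeR was 0.918 or more, so none passed the test. The median of the list was 0.17 without control 3, 0.46 without control 4, 0.20 without control 3 and atorvastatin 3, and 0.16 when offsets were fitted by loess along mean abundance. Library totals alone as the scaling put it at 0.22, where the median of all symbols was -0.14. The 6 hepatocyte markers had a median of 0.30, 4 of 6 above 0 (summed 217 to 348 CPM in PCN livers and 155 to 300 CPM in control livers), and their part in the result was not tested.

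Among serpins of other tissues, 4 of 37 tested lay above 0 with a median of -0.41. Loess offsets put this median at -0.18, and dropping control 3 and atorvastatin 3 put it at -0.33. Marker lists of cells other than hepatocytes lay on the same side. All 6 endothelial, all 6 stellate cell and all 5 neutrophil markers were below 0, with medians of -0.35, -0.51 and -0.48, as were 5 of 6 Kupffer cell markers with a median of -0.39 and 4 of 6 keratinocyte markers with a median of -0.48. Summed over the endothelial markers the level was 36.3 to 57.3 CPM in PCN livers and 39.6 to 81.0 CPM in control livers. The part of these in the list's values was not tested. The lowest p values on that side, after Serpinh1, belonged to Serpinb1b at -0.97 ± 0.59 and Serpinb9g at -1.16 ± 0.73. In both, a single library carried the difference: control 3 had 27.9 CPM of Serpinb1b, where the other controls had 1.26 to 10.3, and 16.9 CPM of Serpinb9g, where they had 2.51 to 4.42. Without that library the values were -0.10 and -0.30.

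Serpinh1 was the only serpin whose groups did not overlap, 1 of 64 tested. PCN livers had 8.94, 8.63, 4.65 and 7.65 CPM, and control livers had 13.3, 12.1, 13.6 and 16.0 CPM. Every PCN library thus lay below every control library, as was the case for 1.52% of all promoters. A share of 1 in 64 serpins is close to that background. The log2 fold change was -0.88 ± 0.43 (SE, n = 4 per group, lower in 4 of 4, unadjusted p = 0.050, adjusted p = 0.918 by edgeR's quasi-likelihood test). It stayed between -0.98 and -0.71 under the 22 alternative settings. All 6 markers of stellate cells and fibroblasts also lay below 0, with a median of -0.51 and summed levels of 35.7 to 60.3 CPM in PCN livers and 52.5 to 93.1 CPM in control livers. Their part in the value of Serpinh1 was not tested. Serpine2 lay at -0.35 ± 0.27. Of the 8 broadly expressed or non-hepatocyte serpins, 2 lay above 0, Serpinb6a at 0.25 and Serpinb9 at 0.07, and the median was -0.20.

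**Figure D4:**
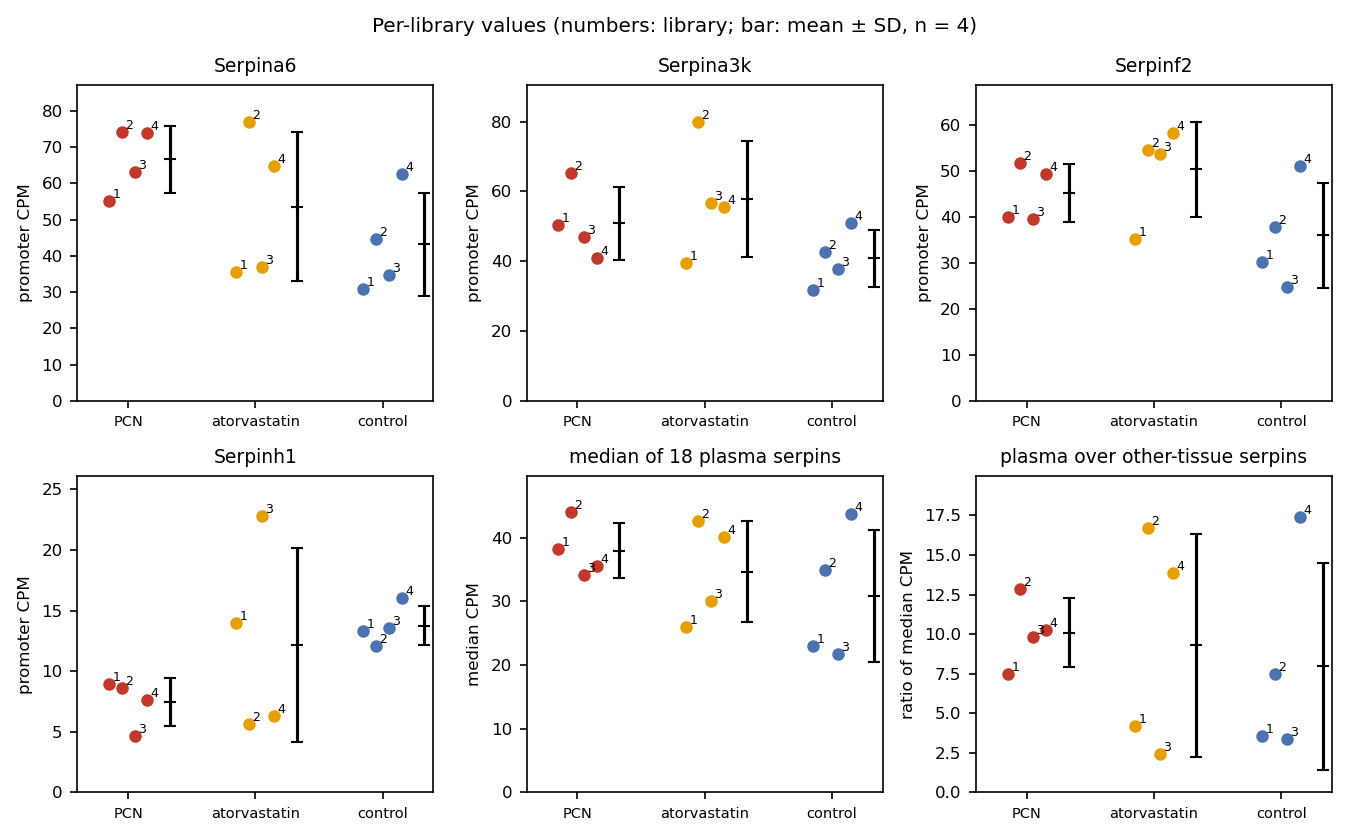
Per-library promoter CPM of Serpina6, Serpina3k, Serpinf2 and Serpinh1, the median CPM of the 18 plasma serpins, and the ratio of that median to the median of serpins of other tissues, with bars for the mean and SD (n = 4). Only Serpinh1 separates PCN (4.65 to 8.94 CPM) from control (12.1 to 16.0), and the other panels overlap between groups.

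The comparison of atorvastatin with control asks the same of the statin. No serpin promoter passed, and the 2 members with the lowest p were Serpina3k and Serpinf2, both higher with atorvastatin. Under edgeR's quasi-likelihood test and Benjamini-Hochberg adjustment, 0 of 64 serpins were called (0% of all promoters), DESeq2 called 1 promoter of the whole table, which was no serpin, and limma-voom called 0. At an unadjusted p under 0.05, 2 serpins lay higher and 0 lower, against 1.06% and 0.864% of all promoters, 1.92% in both directions. Serpina3k had 39.6, 80.0, 56.6 and 55.6 CPM in atorvastatin livers and 31.8, 42.7, 37.9 and 50.9 CPM in control livers. Atorvastatin 1 lay among the controls. The log2 fold change was 0.53 ± 0.25 (SE, n = 4 per group, above the control mean in 3 of 4, unadjusted p = 0.0446, adjusted p = 1.00 by edgeR), and it was 0.32 without atorvastatin 2. Serpinf2 had 35.2, 54.6, 53.8 and 58.3 CPM in atorvastatin livers and 30.3, 38.0, 24.7 and 51.2 CPM in control livers. Its log2 fold change was 0.51 ± 0.24 (SE, above the control mean in 3 of 4, unadjusted p = 0.0466, adjusted p = 1.00 by edgeR), and 0.37 ± 0.22 without the 2 low-correlation libraries.

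Across the plasma list, 14 of 18 members lay above 0 with atorvastatin, against 57.3% of all promoters. The median was 0.22, where that of all symbols was 0.05, and leaving out single libraries moved it between 0.09 without atorvastatin 2 and 0.44 without control 4. The median CPM per library had a pooled SD of 0.41 on the log2 scale, more than that shift. It ran from 26.0 to 42.6 CPM in atorvastatin livers and from 21.7 to 43.7 CPM in control livers. The hepatocyte markers lay at a median of 0.25 (summed 181 to 337 CPM in atorvastatin livers and 155 to 300 CPM in control livers), and their part was not tested. Serpina1c was at 0.46 ± 0.29, Serpina1e at 0.41 ± 0.30, Serpina3m at 0.39 ± 0.27 and Serpina6 at 0.34 ± 0.28. Serpind1, Serpina11, Serpina7 and Serpina3c lay below 0, at -0.16, -0.05, -0.14 and -0.38. The 8 broadly expressed or non-hepatocyte serpins had a median of -0.01, 4 above 0, and ran from -0.34 for Serpinb8 to 0.23 for Serpinb1a. The serpins of other tissues had a median of 0.05 with 21 of 37 above 0. Without control 3 and atorvastatin 3 that median was -0.37, with 5 of 38 above 0, and with loess offsets it was -0.08, so the sign of this list changed with the libraries and the scaling. On the lower side the members of smallest p were Serpinb9g at -1.17 ± 0.73, Serpini1 at -0.35 ± 0.28 and Serpina12 at -0.30 ± 0.25. Without the 2 low-correlation libraries Serpinb9g was at -0.68, Serpini1 at -0.07 and Serpina12 at -0.27. Serpinh1 lay at -0.18 ± 0.42 with all libraries and at -0.72 ± 0.36 without the 2 low-correlation ones. Atorvastatin 3 had 22.8 CPM, where the other 3 had 5.63 to 13.9 CPM.

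**Figure D5:**
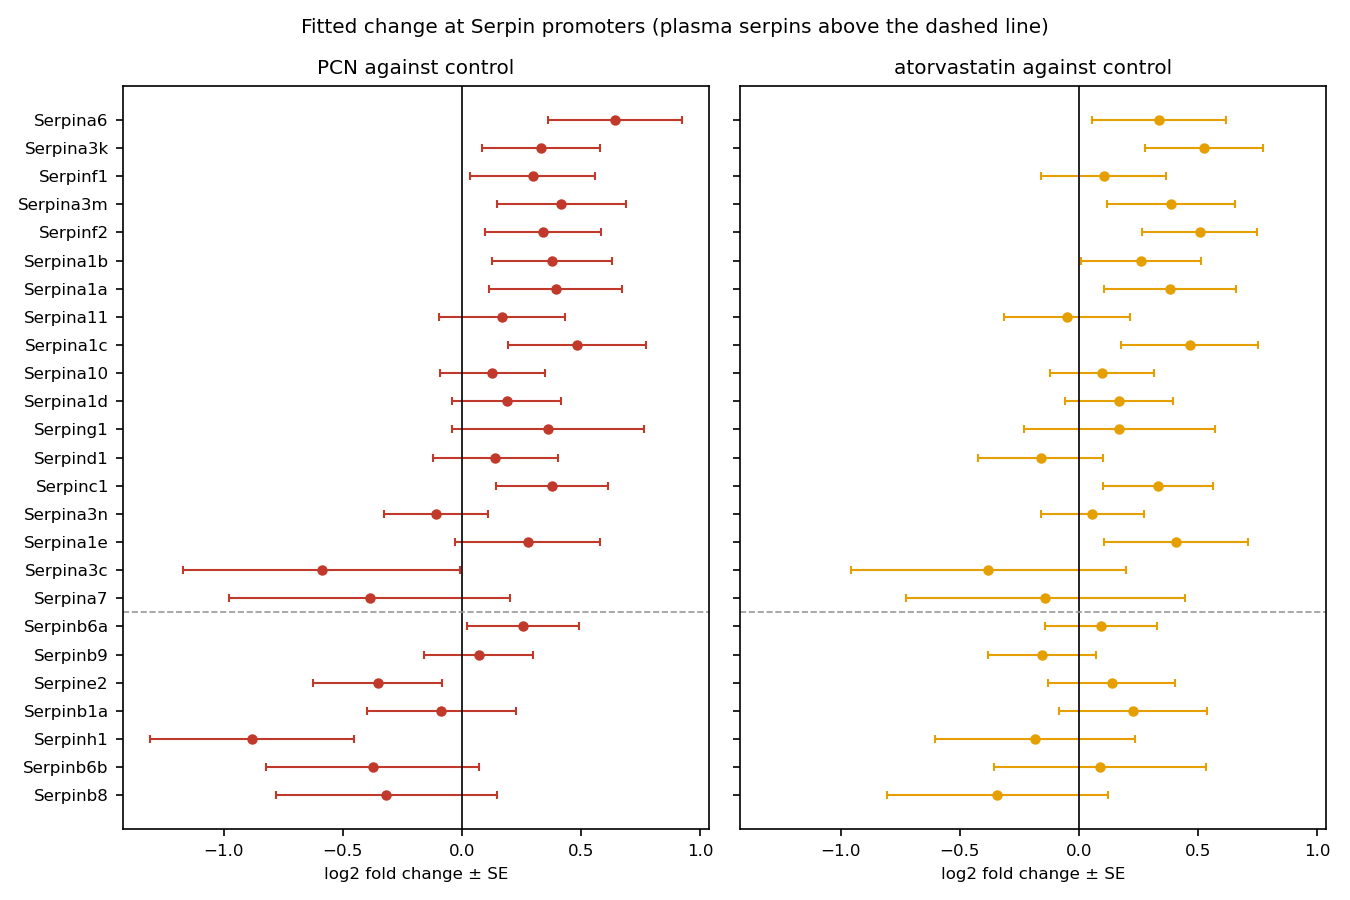
Fitted log2 fold changes with SE (n = 4 libraries per group) of the 18 plasma serpins, above the dashed line, and 7 broadly expressed or non-hepatocyte serpins, for PCN against control on the left and atorvastatin against control on the right. Plasma serpins lie mostly above 0 (15 of 18 with PCN and 14 of 18 with atorvastatin), Serpina6 lies highest with PCN at 0.64, and Serpinh1 lies lowest at -0.88.

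The comparison of PCN with atorvastatin asks where the 2 drugs differ. The plasma serpins lay around 0: 12 of 18 were above it (47.9% of all promoters did), the median was 0.02, and the members ran from -0.25 to 0.31. Library totals put that median at -0.02 with 7 of 18 above 0, loess offsets put it at -0.03, and dropping control 3 and atorvastatin 3 put it at -0.02. No serpin was called, 0 of 64 under edgeR's quasi-likelihood test and Benjamini-Hochberg adjustment, against 0% of all promoters. At an unadjusted p under 0.05 the count was also 0, against 0.73% of all promoters, of which 0.043% lay higher and 0.687% lower. DESeq2 and limma-voom called 0 promoters. Serpini1 had the smallest p on the higher side, at 0.43 ± 0.28, followed by Serpina4-ps1 at 0.46 ± 0.35 and Serpind1 at 0.30 ± 0.26. On the lower side came Serpine2 at -0.49 ± 0.26, Serpinb7 at -1.56 ± 0.86 and Serpinb12 at -1.12 ± 0.63. Atorvastatin 3 held 11.6 CPM of Serpinb7 and 15.9 CPM of Serpinb12, where the other atorvastatin libraries held 0.867 to 3.87 and 2.42 to 5.97. Without the 2 low-correlation libraries Serpini1 was at 0.25, Serpina4-ps1 at 0.17, Serpind1 at 0.15, Serpine2 at -0.35, Serpinb7 at -0.46 and Serpinb12 at -0.20. For serpins of other tissues as a list, the median was -0.43 with 7 of 37 above 0, and 0.08 with 22 of 38 above 0 without the 2 low-correlation libraries. With 95% intervals of -0.23 to 0.84 for Serpina6 and -0.67 to 0.28 for Serpina3k, differences between the drugs of up to these sizes cannot be told from 0.

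The proteases that serpins restrain were read from the same fit as a list of 21 genes. In PCN against control 13 of 21 lay above 0 with a median of 0.20, and 0 were called by edgeR (0% of all promoters). On the higher side, by p, stood Masp2, a protease of the lectin pathway of complement, at 0.51 ± 0.25, the neutrophil elastase gene Elane at 0.44 ± 0.24, and the prothrombin gene F2 at 0.55 ± 0.32. Masp2 and Elane had no overlap between PCN and control livers, as had 2.07% of all promoters. On the lower side stood the plasminogen activator genes Plau at -0.74 ± 0.40 and Plat at -0.75 ± 0.56, and Ctsg, which encodes cathepsin G, at -0.74 ± 0.68. With atorvastatin 12 of 21 lay above the control, with a median of 0.05. Proc, the gene of protein C, Masp2 and F2 were at 0.37 ± 0.28, 0.33 ± 0.25 and 0.42 ± 0.32, and the contact factor genes F11 and Klkb1 were at -0.32 ± 0.29 and -0.18 ± 0.24, with Plat at -0.42 ± 0.56. In PCN against atorvastatin 15 of 21 lay above 0 with a median of 0.14. Elane at 0.22 ± 0.23, the proteinase gene Prtn3 at 0.29 ± 0.25 and the plasminogen gene Plg at 0.29 ± 0.27 stood on the higher side, and Ctsg at -1.11 ± 0.67, Plau at -0.64 ± 0.40 and Hgf at -0.60 ± 0.42 on the lower. Of 11 hepatic transcription factor genes 9 lay above 0 with PCN and 8 with atorvastatin, at medians of 0.31 and 0.21. All 7 acute phase regulators lay above 0 with either drug, at medians of 0.34 and 0.29, against 51% and 57.3% of all promoters. Their summed level was 200 CPM in control 3, the library that stood apart, and 305 to 437 CPM in the other controls.

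Of 500 enhancer regions within 10 kb of a serpin gene, 311 passed the filter on low counts. Under edgeR's quasi-likelihood test and Benjamini-Hochberg adjustment, 0 were called in each of the 3 comparisons (0% of all 182115 regions tested), and other test tools were not run on the regions. At an unadjusted p under 0.05, 7 serpin regions lay higher with PCN against control, which is 2.25% of 311, against 1.4% of all regions. All 7 lay within 10 kb of serpins of other tissues, 7 of 95 regions tested there. Of these, 5 overlapping regions lay near both Serpina5 and Serpina3a, at 1.32 to 1.44 with PCN and 0.87 to 0.99 without the 2 low-correlation libraries. The other 2 lay between Serpina16 and Serpina6, and so also count among the regions near plasma serpins. No serpin region lay lower, so the share in both directions was the same, against 1.98% of all regions. With atorvastatin against control 3 lay higher and 2 lower, where 1.78% of all regions lay higher and 2.39% passed in both directions. With PCN against atorvastatin 0 lay higher and 2 lower, where 0.0637% of all regions lay higher and 0.426% passed in both directions. Near plasma serpins 164 of 215 regions lay above 0 with PCN, with a median of 0.39, against 64% of all regions with a median of 0.20. With atorvastatin 158 of 215 did, with a median of 0.37, against 59.4% of all regions with a median of 0.14. In PCN against atorvastatin 126 of 215 lay above 0, with a median of 0.09, against 56.7% of all regions. Near serpins of other tissues 91 of 95 regions lay above 0 with PCN against control, with a median of 0.49. Most of these regions belonged to the chromosome 12 cluster, with 27 near Serpina16 and 21 near Serpina12, and they overlap one another. Many genes of the list, such as Serpini1 and Serpinb5, had no region tested. The regions thus cover only part of the genes of the 37 promoters, of which 4 lay above 0. At genes with many regions tested, promoters lay below 0 with PCN. Serpina16 was at -0.41, Serpina3a at -0.61, Serpina5 at -0.37 and Serpina12 at -0.17. The promoter of Serpina3f, which also had regions tested, lay at 0.03. Why promoters and regions differed in sign was not tested. The regions near broadly expressed serpins that were tested numbered 11.

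The regions with an unadjusted p under 0.05 near plasma serpins lay beside Serpina6 in each comparison, apart from 1 lower region with atorvastatin. One at chr12:103660229-103660411 (mm10), 3011 bp past the high-coordinate end of Serpina6 and before Serpina16, had 12.6, 15.0, 7.45 and 12.7 CPM in PCN livers and 6.55, 13.6, 24.1 and 10.5 CPM in atorvastatin livers. Control livers had 7.90, 5.42, 1.25 and 4.83 CPM. All but PCN 3 and atorvastatin 1 lay above every control. The log2 fold change was 1.24 ± 0.48 with PCN (unadjusted p = 0.0163, adjusted p = 1.00 by edgeR) and 1.46 ± 0.48 with atorvastatin (unadjusted p = 0.00562, adjusted p = 1.00 by edgeR). Without the 2 low-correlation libraries the values were 0.90 ± 0.32 and 0.76 ± 0.33. The region is of the 182 bp width class, in which atorvastatin 3 averaged 5.04 CPM and the other libraries 0.745 to 1.26, and the part of this in its value was not tested. It overlaps 3 regions of other widths, and the 4 together lay at 1.14 to 1.32 with PCN and 1.19 to 1.46 with atorvastatin. On the other side of Serpina6, 4 overlapping regions between 103643455 and 103643637 lay at 1.65 to 1.82 with atorvastatin against control and at -2.07 to -1.34 with PCN against atorvastatin. The region of smallest p there (chr12:103643476-103643582) held 11.2 CPM in atorvastatin 3, where the other atorvastatin libraries held 1.33 to 5.20, the PCN libraries 0.285 to 2.84 and the controls 0 to 2.71. Without control 3 and atorvastatin 3 this region did not pass the filter on low counts. Its fold changes therefore cannot be checked without these 2 libraries.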

How the data were processed

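The promoter and enhancer tables hold expected counts as deposited by the authors, unnormalised and in steps of 0.5, for 43511 promoters and 406518 regions. The submitters' processing notes name the mm10 build and the tools HOMER 4.10, bedtools 2.30.0, Trimmomatic and STAR 2.7.9a. Which reads were counted, how reads that fit several copies were placed, and the promoter window are not given in the sources used here. Columns were matched to samples by title.

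Counts were rounded and fitted in R 4.3.3 with edgeR 4.0.16 (TMM, quasi-likelihood test) on group alone. Each table had its own fit over the 12 libraries, of 41908 promoters or 182115 regions that passed filterByExpr (min.count 10, min.total.count 15). Benjamini-Hochberg adjustment covered all rows at a threshold of 0.05. SEs were derived from the F statistic of each log2 fold change, and 95% intervals are normal. Scripts were tested on simulated data. The members and lists were chosen with earlier results of these data known. Named were all plasma and broadly expressed members (1 is counted in its list but not reported here), the 3 members per direction and comparison of smallest p, the 3 most open serpins of other tissues, and the 3 target proteases per direction and comparison of smallest p. Other genes named for single values were chosen after these were seen. Gene bodies and promoter sequences are RefSeq's (GRCm38.p6), and 54 of 65 members matched a promoter sequence. Motifs were searched on both strands, and a palindrome search overlaps GTTAAT. Alternatives were DESeq2 1.42.0, limma-voom (limma 3.58.1), other scalings and filters, a replicate block and left-out libraries.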

Additional observations from a re-analysis of the deposited data

Results flagged for a closer look

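In 102 groups of 4 libraries, 6 serpin values lay far from the other 3 of their group, and chance alone flags about 1 in 20 groups. Serpina3a had 11.6 CPM in PCN 1, against 5.94 to 6.11 in the other PCN libraries. Serpina1e had 28.7 CPM in atorvastatin 2, against 15.0 to 16.7 in the other atorvastatin libraries, and Serpina3n had 16.0 CPM in atorvastatin 1, against 25.0 to 26.7. In control 3, the library of lowest correlation, Serpina4-ps1 had 45.4 CPM, against 23.2 to 26.4 in the other controls, and Serpinb9g had 16.9 CPM, against 2.51 to 4.42. Serpina12 had 28.9 CPM in control 4, the shallowest library, against 15.9 to 18.1 in the other controls.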

How the results depend on the processing

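Under 22 alternatives, 0 of 46 serpin and protease genes passed the threshold in any comparison, and 163 of 3033 values of single genes changed sign without having passed. The count of called promoters over the whole table was 0 in each comparison with every setting run except these: without control 3 and atorvastatin 3 it was 6 for PCN against control and 4 for atorvastatin against control, and with DESeq2 it was 1 for atorvastatin against control. None of the called promoters was a serpin. Called enhancer regions numbered 0 under every setting run. Leaving out 1 library at a time gave 0 called promoters and regions throughout, and medians of the plasma serpins from 0.17 to 0.46 for PCN against control, 0.09 to 0.44 for atorvastatin against control and -0.10 to 0.15 for PCN against atorvastatin. With the replicate number as a block, 0 promoters and 0 regions were called in each comparison, and the plasma medians were 0.34, 0.26 and 0.05. Libraries of the same number do not pair by the labels, and correlations of their deviations ran from -0.42 to 0.50. Depth limits the closed members most: in control 4, 1 count is worth 0.628 CPM.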
